A study of Mus musculus with 44 samples.

Results

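The 3 retinoid X receptor genes of the mouse, Rxra, Rxrb and Rxrg, and the vector sequence that was overexpressed, listed as plasmid.co-RXRa, were followed across the nucleus accumbens of mice that had received a virus. They are 4 of the 55489 rows of each deposited count table, chosen by gene symbol and vector name and not by any measured value. The bulk table held 8 libraries of tissue from males, 4 with HSV-GFP and 4 with HSV-RXRa-GFP, where HSV is a herpes simplex virus vector that infects neurons. The sorted table held 36 libraries, each of D1 or of D2 nuclei, from females and males that had received AAV9-CAG-DIO-EGFP or AAV9-CAG-DIO-EGFP-P2A-RXRa. This adeno-associated virus needs Cre recombinase to switch its insert on, which the general CAG promoter then drives, and P2A lets 1 transcript give EGFP and RXRa as separate proteins. The sorted groups held 5 D1 female EGFP, 4 D1 female RXRa, 5 D1 male EGFP, 4 D1 male RXRa, 4 D2 female EGFP, 4 D2 female RXRa, 5 D2 male EGFP and 4 D2 male RXRa libraries. The title and the vector label of 1 further library name different vectors, so it was kept out of all comparisons. Every animal thus carried a virus and a fluorescent protein. Strain, age, the Cre line and whether animals were pooled are not given in the sources used here. The p-values measure the spread between these libraries, which the labels do not say came from separate animals.

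Retinoid X receptors are nuclear receptors that bind DNA as dimers, with themselves or with partners such as the retinoic acid, liver X, thyroid hormone and vitamin D receptors. Most of these dimers recognise paired copies of a short hexamer, the half-site AGGTCA. In the striatum Rxrg is known as the retinoid X receptor gene of the medium spiny neurons, which carry either the dopamine receptor Drd1 or Drd2, whereas Rxra and Rxrb are found in many cell types.

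The bulk libraries held 21567565 to 29167142 counts over genes, and the 35 assigned sorted libraries 12211655 to 27757463. Drd2 separated the sorted labels, at 519.7 to 1779 CPM (a gene's counts per M counts of the library, after scaling by TMM, a method that evens out library composition) in the 17 D2 libraries and 49.0 to 106.2 CPM in the 18 D1 libraries. Drd1 ran from 30.7 to 83.8 CPM in D1 and from 6.50 to 38.6 CPM in D2, so it overlapped between the labels. A set of 1576 autosomal protein-coding genes without a single bulk count and with a body of 5 kb or more, called silent here, still collected counts in the sorted libraries, in proportion to the length of the gene body (slope 0.94 on log2 scales) and not of the exons (slope 0.095). The median silent gene had 0.380 to 0.565 CPM per kb of gene body in a sorted library.

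Rxra (ENSMUSG00000015846) lies on the plus strand of chromosome 2 at 27676440 to 27762957 in GRCm38, a gene body of 86.5 kb with 5.46 kb of merged exons. Rxrb (ENSMUSG00000039656) lies on the plus strand of chromosome 17 at 34031812 to 34038399, with 6.59 kb of body and 3.97 kb of exons. Rxrg (ENSMUSG00000015843) lies on the plus strand of chromosome 1 at 167598384 to 167639623, with 41.2 kb of body and 2.30 kb of exons. No other annotated gene overlaps any of the 3. RefSeq (GRCm38.p6) gives 2 promoter windows for each gene, from 250 bases before to 50 bases after a start. The half-site AGGTCA, searched on both strands, was in the second window of Rxra and of Rxrg and in neither window of Rxrb, and 16.3% of all 32851 promoter windows of this length hold it. The stretches are shown because each carries a single copy of the hexamer that most of the receptor's dimers recognise in pairs. The match is in capitals and written 5′ to 3′ along the gene. Both second windows, from 27709042 for Rxra and 167618015 for Rxrg, lie inside the annotated gene body. The starts named below are therefore internal ones. The first Rxra match (chr2:27709181-27709234) reads the half-site on the opposite strand, so its capitals are TGACCT, and the second (chr2:27709220-27709273) overlaps it in part. The Rxrg stretch is chr1:167618153-167618206.
Rxra, 87 bases before the start: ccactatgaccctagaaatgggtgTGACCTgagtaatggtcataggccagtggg
Rxra, 48 bases before the start: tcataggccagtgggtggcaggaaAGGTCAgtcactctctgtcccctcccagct
Rxrg, 88 bases before the start: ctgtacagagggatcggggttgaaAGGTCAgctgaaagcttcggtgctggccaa
A match is a description of the letters and no measure of binding.

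The transgene was present in every RXRa library and far below them in every control. In bulk it had 0 counts in each of the 4 GFP libraries, which allows up to 0.113 CPM at 3 counts, and 567, 808, 818 and 914 counts in the 4 RXRa libraries. Those correspond to 22.1, 27.8, 37.7 and 37.0 CPM, a mean of 31.2 ± 7.53 CPM (SD, n = 4). The mean was at least 277-fold higher than the highest 3-count floor of a control library. Among sorted libraries the 19 EGFP controls held 0 to 17 transgene counts each, or 0 to 0.877 CPM. Only D2 male EGFP 2 held 0, and the source of the others' counts was not tested.

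Among the sorted RXRa libraries the dose spanned more than an order of magnitude. D1 female RXRa libraries had 284.6, 86.6, 154.8 and 125.4 CPM of transgene, and D1 male RXRa libraries had 133.1, 255.1, 43.4 and 198.0 CPM. D2 female RXRa libraries had 393.4, 198.5, 710.2 and 265.2 CPM, and D2 male RXRa libraries had 134.2, 256.6, 590.9 and 618.6 CPM. D1 and D2 overlapped in both sexes, and the highest doses lay in D2. Against the mean of their controls, the group means were 432-fold higher in D1 female, 367-fold in D1 male and 1307-fold in D2 female. Those controls held only 4 to 17, 3 to 12 and 4 to 6 counts in that order, so the folds are rough. No fold is given for D2 male, whose controls held only 0 to 5 counts, and there the lowest RXRa library was at 134.2 CPM and the highest control at 0.396 CPM. No RXRa library overlapped a control. Each of these comparisons reached the smallest exact two-sided permutation p its size allows on log2(CPM + 1), 0.0286 in bulk and D2 female and 0.0159 in the others, with Benjamini-Hochberg values over the 5 comparisons of 0.0265 to 0.0286.

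**Figure D1:**
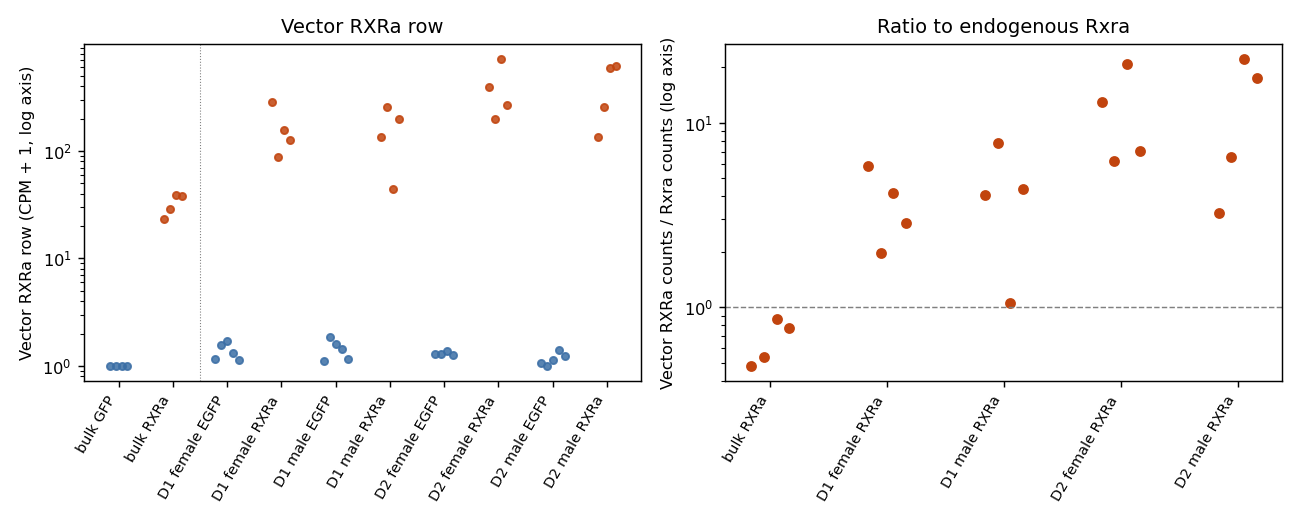
Left, the vector RXRa row in every assigned library as CPM + 1 on a log axis, with controls in blue and RXRa libraries in orange. Right, the counts of that row divided by the Rxra counts of the same library on a log axis, with a dashed line at 1: the 4 bulk libraries lie at 0.481 to 0.866 and the 16 sorted ones at 1.06 to 22.1.

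The difference in dose between D2 and D1 was not resolved. The D2 mean of log2(CPM + 1) exceeded that of D1 by 1.23 in females (exact two-sided permutation p = 0.0857) and by 1.35 in males (p = 0.114), with adjusted values over 4 comparisons of 0.229 for each. Females and males differed by 0.18 in D1 and 0.06 in D2 (exact permutation p = 0.829 and p = 0.943). The vector GFP row, the fluorescent marker carried by both arms, gives a second reading of vector dose. Its mean was 255.4 ± 107.4 CPM (SD, n = 10) in D1 EGFP, 158.3 ± 76.4 CPM (SD, n = 8) in D1 RXRa, 452.2 ± 218.9 CPM (SD, n = 9) in D2 EGFP and 386.0 ± 206.0 CPM (SD, n = 8) in D2 RXRa. RXRa and control libraries overlapped in GFP, and the lowest adjusted exact permutation p over its 5 comparisons was 0.464.

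Transgene and vector GFP moved together. In the 16 sorted RXRa libraries the transgene had 0.881 to 1.12 counts per GFP count, and in bulk 0.562 to 0.660. Across those 16 libraries log2(CPM + 1) of the rows had Pearson's r = 0.995 and Spearman's rho = 0.976, with a permutation p of 1e-05 for each, the smallest that the resampling can give. The r was 0.992 without the 2 libraries farthest from the median dose. Both rows lie on the same transcript of this vector.

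Measured against endogenous Rxra in the same library, which needs no scaling, the transgene was below 1 count per Rxra count in bulk and above 1 in each sorted library. The tables differ in virus, in tissue against sorted nuclei and in RNA selection, so these ratios do not compare dose per cell. Rxra counts of bulk tissue can also come from cells without the vector, whose share was not measured here. Bulk RXRa libraries held 0.481, 0.535, 0.866 and 0.773 transgene counts per Rxra count. D1 female RXRa libraries held 5.87, 1.96, 4.17 and 2.86, and D1 male RXRa libraries 4.07, 7.83, 1.06 and 4.40. The D2 female ratios were 13.1, 6.24, 20.8 and 7.08, and the D2 male ratios were 3.25, 6.55, 22.1 and 17.5. Every D2 female ratio exceeded every D1 female ratio, a difference of 1.61 on the log2 scale with the smallest exact permutation p that 4 against 4 allows (0.0286, adjusted over 4 comparisons 0.114). The male ratios overlapped, with a difference of 1.45 (p = 0.2, adjusted 0.4, exact permutation test).

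Counts per gene grow with the length that is counted, so the ratio also depends on what that length is. The length of the vector row is not given in the sources used here. If it equals the coding sequence of mouse Rxra, the transgene per kb stood at 1.87 to 3.38 times Rxra per kb of exon in bulk. In the sorted RXRa libraries that ratio was 4.13 to 86.3, with an exon divisor that the silent genes did not follow there. Against the 3 Rxr genes summed, the transgene had 0.0826 to 0.166 counts per Rxr count in bulk. In the sorted RXRa libraries it had 0.484 to 6.08. Those counts were not divided by length. On that scale the transgene stayed below the 3 genes together in each bulk library and lay on both sides of them in sorted nuclei.

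The endogenous genes differed in how they stood in the 2 kinds of library. In bulk GFP, Rxra was at 57.6, 51.8, 46.3 and 49.9 CPM, Rxrb at 99.9, 101.4, 98.0 and 97.9 CPM, and Rxrg at 81.9, 96.6, 116.1 and 121.7 CPM. Per kb of exon the order was Rxrg, Rxrb, Rxra in 8 of 8 bulk libraries, with Rxrg at a median of 4.94 times and Rxrb at 2.71 times Rxra. Poly(A)-selected tissue RNA is mainly spliced, for which exon length is the usual divisor. In the sorted libraries Rxra lay at 26.7 to 48.5 CPM with a median of 39.1, Rxrb at 4.81 to 8.89 with a median of 6.44, and Rxrg at 38.7 to 79.6 with a median of 50.3.

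In sorted nuclei the order of Rxra and Rxrb turned with the length used. Per kb of exon it was Rxrg, Rxra, Rxrb in 35 of 35 libraries, with Rxrb at a median of 0.223 times Rxra. Per kb of gene body, the length that silent genes followed, it was Rxrg, Rxrb, Rxra in 31 libraries and Rxrb, Rxrg, Rxra in 4, with Rxrb at 2.13 times Rxra. Rxrg exceeded Rxra with either length in every library of both tables, at a sorted median of 3.16 times per kb of exon and 2.78 times per kb of body. The sorted order of Rxra and Rxrb thus rests on the divisor.

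Rxra lay within the range of the silent genes in sorted nuclei. Its density over all sorted libraries was 0.441 CPM per kb of gene body, against a median of 0.501 over the 1576 silent genes with a central range from the 10th to the 90th percentile of 0.269 to 0.710, and 35.1% of silent genes lay below it. Divided by the median silent gene of the same library, Rxra ran from 0.641 to 1.48 with a median of 0.913. Rxrb, at 0.986 CPM per kb, lay above 98.9% of silent genes, and Rxrg, at 1.31 CPM per kb, above 99.7%. Their ratios to the median silent gene ran from 1.36 to 3.50 and from 1.75 to 4.84, so neither touched 1 in any library. A uniform background at that density would give Rxra 32.9 to 48.9 CPM in these libraries, where 26.7 to 48.5 CPM was measured. The transgene-to-Rxra ratios in sorted nuclei therefore divide by a level that lay on both sides of this background. Across libraries, log2 levels of Rxra and the density of the median silent gene had r = -0.102 over 17 D2 and -0.430 over 18 D1 libraries. Whether these Rxra counts come from Rxra messenger RNA was not tested.

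**Figure D2:**
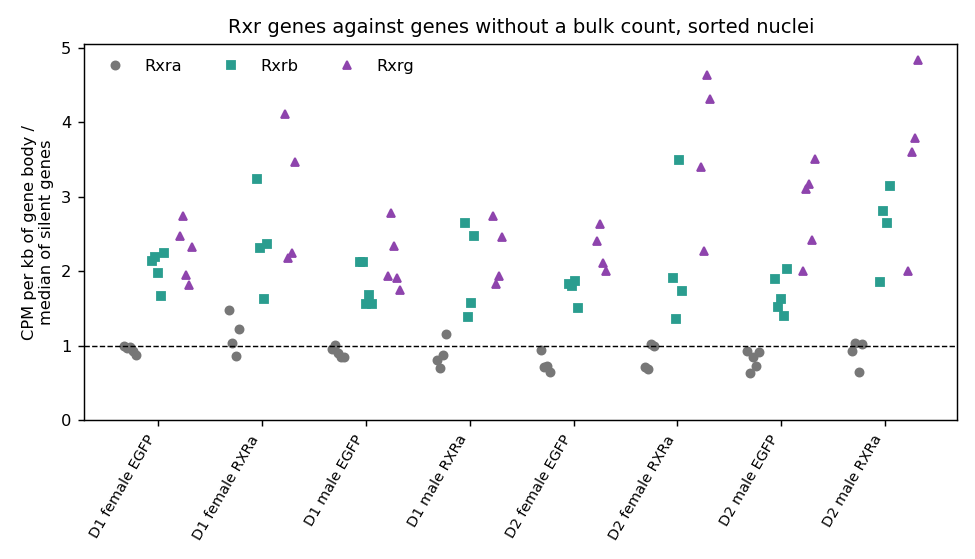
CPM per kb of gene body of Rxra (grey circles), Rxrb (green squares) and Rxrg (purple triangles) divided by the median of the silent genes in the same sorted library, by group. The dashed line marks 1, around which Rxra scatters from 0.641 to 1.48, whereas every Rxrb and Rxrg point lies above it.

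**Figure D3:**
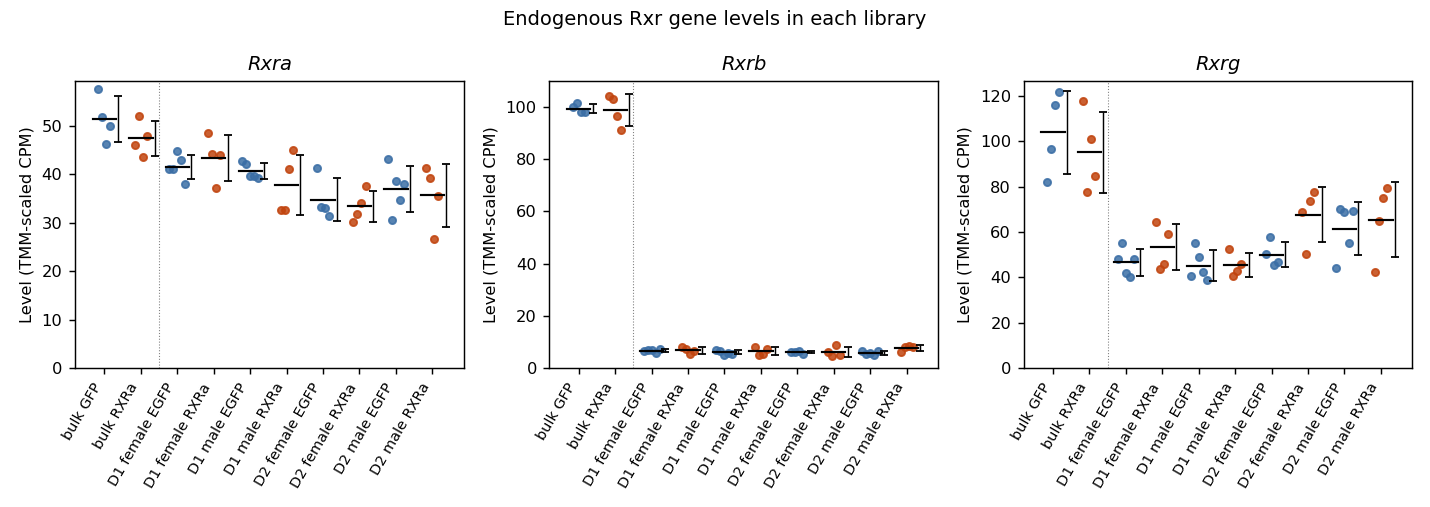
Levels of Rxra, Rxrb and Rxrg in each library as CPM, with controls in blue and RXRa libraries in orange. The horizontal bar is the group mean and the bracket beside it 1 SD; the dotted line parts bulk from sorted nuclei, whose levels were not compared because the libraries were made differently.

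In bulk, no Rxr gene passed the test between RXRa and GFP: 0 of 3 were called by edgeR's quasi-likelihood test at a Benjamini-Hochberg adjusted p under 0.05, where 3.7% of the 18579 genes tested were called. The RXRa libraries had 46.0, 51.9, 43.6 and 47.9 CPM of Rxra, which overlapped the GFP libraries, and edgeR fitted a log2 fold change of -0.12 (95% interval -0.30 to 0.061, adjusted p 0.428). Rxrb had 104.2, 103.1, 96.6 and 91.0 CPM with RXRa, again overlapping, with a log2 fold change of -0.01 (95% interval -0.13 to 0.11, edgeR adjusted p 0.957). Rxrg had 117.6, 77.7, 101.0 and 84.6 CPM, with a log2 fold change of -0.13 (95% interval -0.48 to 0.22, edgeR adjusted p 0.676). Rxra was thus not called higher in libraries that held up to 914 transgene counts. In bulk tissue, fewer cells of a type and less RNA per cell cannot be told apart. The bulk libraries also varied within each arm in the summed level of 3 cortical excitatory neuron markers. It ran from 6.51 to 607.9 CPM with GFP and from 58.1 to 459.8 CPM with RXRa. Whether the tissue taken differed between libraries was not tested.

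In D1 nuclei no Rxr gene passed either. Over both sexes edgeR called 0% of 43902 genes, with 3518 at an unadjusted p under 0.05 and 0 by DESeq2, and the log2 fold changes were -0.02 (SE 0.08) for Rxra, 0.04 (SE 0.11) for Rxrb and 0.10 (SE 0.11) for Rxrg. D1 female alone (0% called by edgeR, 2757 at an unadjusted p under 0.05, 4 by DESeq2) gave 0.06, 0.01 and 0.19 for the 3 genes. D1 male alone (0% called by edgeR, 1326 at an unadjusted p under 0.05, 0 by DESeq2) gave -0.10, 0.07 and 0.01. All edgeR adjusted p-values in D1 were at least 0.789.

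In D2 nuclei no Rxr gene passed, and Rxrg had the widest of the 3 differences in females and over both sexes, Rxrb in males. Rxrg was at 50.4, 57.8, 45.7 and 46.7 CPM in D2 female EGFP, and at 68.7, 50.3, 73.8 and 77.7 CPM in D2 female RXRa, where 3 of the 4 exceeded every control. In males the ranges overlapped and 2 of the 4 RXRa libraries exceeded every control, at 44.1, 70.3, 68.9, 55.1 and 69.5 CPM with EGFP and 42.6, 64.9, 75.0 and 79.6 CPM with RXRa. The log2 fold change of Rxrg was 0.43 in females (95% interval 0.10 to 0.77, edgeR adjusted p 0.115), 0.09 in males (95% interval -0.23 to 0.40, edgeR adjusted p 0.792) and 0.26 over both sexes (SE 0.11, edgeR adjusted p 0.0903). Over both sexes 0 of 3 Rxr genes were called, where edgeR called 22.1% of all genes.

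The D2 value of Rxrg rested on several choices. Over both sexes it passed without D2 female RXRa 3 (0.32, edgeR adjusted p 0.0302) and without D2 male RXRa 1 (0.34, edgeR adjusted p 0.0122), the D2 RXRa libraries with the lowest doses, and in females alone it passed without D2 female RXRa 3 (0.55, edgeR adjusted p 0.0287). Other fits that left out 1 library weakened it, down to 0.19 over both sexes and 0.33 in females. The edgeR adjusted p then reached up to 0.248 and 0.569. With the silent-gene density as a covariate it was -0.05 (edgeR adjusted p 0.964), and with library totals in place of TMM 0.08, where the median of all genes moved from -0.04 to -0.20. The silent-gene density itself was lower with RXRa in D2, a difference of -0.21 on the log2 scale (exact two-sided permutation p = 0.00408, adjusted over 10 tests 0.0204), and the difference in D1 was -0.12 (p = 0.0488, adjusted 0.0813). Divided by that density within each library, Rxrg was higher with RXRa in D2 by 0.46 (exact two-sided permutation p = 0.0349, adjusted 0.0762), opposite in sign to the value with the covariate, and neither passed. On the log2 scale this ratio subtracts the density, which was itself lower with RXRa, so it is no separate reading of Rxrg. The same ratio was higher in D2 by 0.16 for Rxra and 0.40 for Rxrb.

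Rxrb and Rxra did not pass in D2 either. Rxrb was at 6.68, 5.51, 5.66, 5.07 and 6.44 CPM in D2 male EGFP and at 6.29, 8.11, 8.37 and 8.25 CPM in D2 male RXRa, where 3 of 4 exceeded every control. Its log2 fold change was 0.39 in males (95% interval 0.07 to 0.70, edgeR adjusted p 0.203), 0.03 in females and 0.21 over both sexes (SE 0.11, edgeR adjusted p 0.185). Without D2 male RXRa 1 the male value was 0.48 (edgeR adjusted p 0.0486). Rxra gave -0.05 in females, -0.05 in males and -0.05 over both sexes (SE 0.08, edgeR adjusted p 0.684). In each sex alone edgeR called 0% of genes in D2, with 11080 at an unadjusted p under 0.05 in females and 8656 in males, and DESeq2 called 2900 and 20.

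The D2 effect was not shown to differ from the D1 effect for any member. The difference of the effects was -0.03 for Rxra (95% interval -0.26 to 0.20), 0.17 for Rxrb (95% interval -0.15 to 0.48) and 0.16 for Rxrg (95% interval -0.16 to 0.48), with edgeR adjusted p-values of at least 0.716. That test called 0% of all genes, with 3609 at an unadjusted p under 0.05 and 0 by DESeq2. Female against male gave 0.01 for Rxra, -0.01 for Rxrb and 0.01 for Rxrg, with an edgeR adjusted p of 1 for each, where 4.77% of all genes were called.

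**Figure D4:**
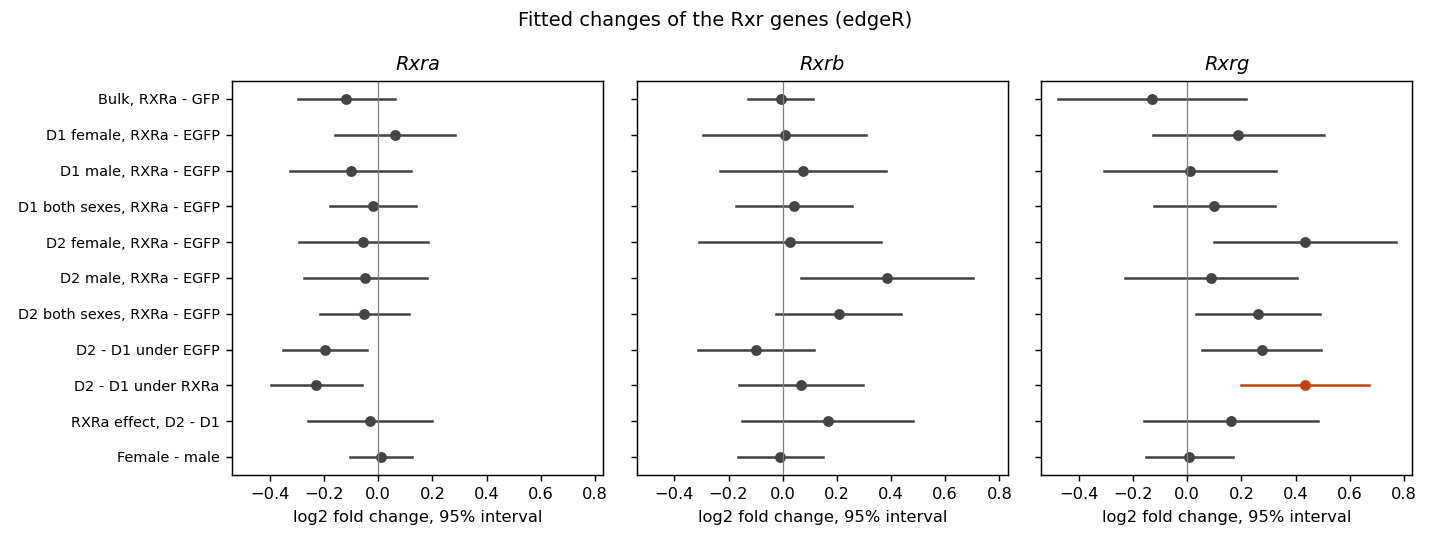
Fitted log2 fold changes of the 3 genes with 95% intervals in 11 comparisons. Orange marks an edgeR adjusted p under 0.05, which only Rxrg in D2 against D1 under RXRa reached (0.44).

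Between the populations, Rxrg was higher in D2 than in D1 under RXRa. In RXRa libraries it ran from 40.7 to 64.4 CPM in D1 with a median of 45.8 and from 42.6 to 79.6 CPM in D2 with a median of 71.2, and the ranges overlapped. The log2 fold change was 0.44 (SE 0.12, edgeR adjusted p 0.0312), and 8.36% of all genes were called in this comparison. In EGFP libraries it ran from 38.7 to 55.2 CPM in D1 with a median of 45.4 and from 44.1 to 70.3 CPM in D2 with a median of 55.1, which edgeR fitted as 0.27 on the log2 scale (SE 0.11, adjusted p 0.352) where 0.121% of genes were called. The call under RXRa did not survive leaving out any 1 of 9 of the 16 libraries: D1 female RXRa 2, 4 or 5, D2 female RXRa 2 or 4, D1 male RXRa 2 or 3, and D2 male RXRa 3 or 5. Its edgeR adjusted p then ran up to 0.116, and the log2 fold change over all 16 such fits from 0.36 to 0.52. Rxra in D2 against D1 gave -0.20 under EGFP (SE 0.08, edgeR adjusted p 0.346) and -0.23 under RXRa (SE 0.08, edgeR adjusted p 0.0723), and neither passed. The latter passed without D2 female RXRa 5 (-0.28, edgeR adjusted p 0.0321), D1 male RXRa 1 (-0.28, edgeR adjusted p 0.0264) or D2 male RXRa 1 (-0.27, edgeR adjusted p 0.0207). Rxrb gave -0.10 under EGFP and 0.07 under RXRa, with edgeR adjusted p-values of at least 0.753.

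Among RXRa libraries, Rxrg levels scaled by TMM were correlated with the transgene dose. Across the 16, Pearson's r of log2(CPM + 1) was 0.761 (permutation p = 0.00061, adjusted over 4 relations 0.0012) and Spearman's rho 0.753 (permutation p = 0.0011, adjusted 0.0022), and r was 0.733 without the 2 libraries farthest from the median dose. That resampling moved libraries freely between D1 and D2. The mean dose and the mean Rxrg level were both higher in the D2 RXRa libraries, so the pooled value does not part population from dose. The populations were then read apart. Within the 8 D1 libraries r was 0.334 (exact permutation p = 0.42, adjusted 0.84) and turned to -0.394 without the 2 farthest, D1 male RXRa 3 and D1 female RXRa 1. Within the 8 D2 libraries r was 0.831 (exact permutation p = 0.0043, adjusted 0.0086) and rho 0.762 (exact permutation p = 0.037, adjusted 0.074), and r was 0.725 without the 2 farthest. The difference between the D1 and D2 values was not tested. Both levels of a library are divided by the same scaled library size. With library totals in place of TMM, D2 female RXRa 4 still had the highest dose, 557.1 CPM, but 57.9 CPM of Rxrg. D2 male RXRa 3 and 5 had 63.8 and 66.4 CPM of Rxrg at 502.5 and 516.3 CPM of transgene. D2 male RXRa 1 stayed lowest of the D2 RXRa libraries in both, at 45.0 and 141.8 CPM. The D2 correlation on that scale is not given here.

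The other genes showed no relation that passed with TMM. Rxra had r = -0.510 (permutation p = 0.045, adjusted 0.06) over the 16 libraries, -0.0421 within D1 and -0.550 within D2, and with library totals in place of TMM, plasmid.co-RXRa and Rxra across RXRa libraries had r = -0.654 (permutation test, adjusted p 0.012). Rxrb had r = 0.407 (permutation p = 0.12, adjusted 0.12), 0.147 within D1 and 0.689 within D2. The values over the 16 libraries again pool D1 and D2.

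**Figure D5:**
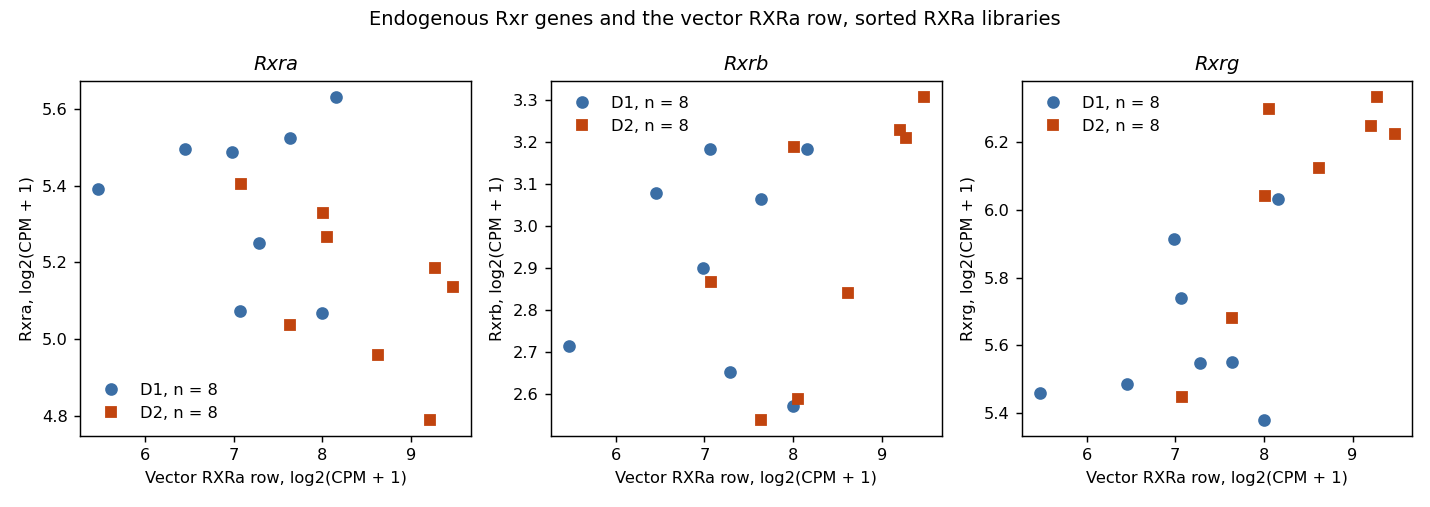
Endogenous Rxra, Rxrb and Rxrg against the vector RXRa row in the 16 sorted RXRa libraries, both as log2(CPM + 1), with D1 as blue circles and D2 as orange squares. With both scaled by TMM, Rxrg climbs with the transgene among the D2 libraries (r = 0.831, n = 8), and r was 0.334 among the D1 libraries (n = 8).

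Other values moved with both the dose and Rxrg in D2. Drd2 ran from 519.7 to 928.6 CPM in D2 EGFP and from 615.3 to 1779 CPM in D2 RXRa, and the library with the highest Drd2, D2 female RXRa 4, also had the highest transgene level. As a description, log2 levels of Drd2 and the transgene had r = 0.810 over the 8 D2 RXRa libraries, and Drd2 and Rxrg had r = 0.848 over all 17 D2 libraries. Drd1 and Rxrg had r = 0.830 over the 18 D1 libraries. The silent-gene density was lower where the dose was higher in D2, with r = -0.685 over the 8 libraries, and where Rxrg was higher, with r = -0.653 over 17 D2 and -0.856 over 18 D1 libraries. Points within each set share the sorted population and its scaling. In EGFP libraries, whose vector label names no RXRa, vector GFP and Rxrg had r = -0.332 over 9 D2 and 0.590 over 10 D1 libraries. Drd1 in these D2 libraries ran from 6.50 to 16.6 CPM with EGFP (median 13.9) and from 9.56 to 38.6 CPM with RXRa (median 25.2), and the sum of 5 D1 neuron markers from 121.7 to 159.4 and from 115.8 to 226.6 CPM. The summed level of the 5 D2 neuron markers ran from 761.7 to 1472 CPM in D2 EGFP and from 889.7 to 2743 CPM in D2 RXRa, and that of the 4 striatal projection neuron markers from 338.6 to 658.7 and from 354.0 to 1022 CPM. The sums for the other cell types overlapped between the arms as well, at 115.3 to 177.1 and 114.4 to 143.6 CPM for oligodendrocytes, 176.6 to 276.4 and 168.2 to 266.8 CPM for astrocytes, and 101.0 to 127.1 and 110.3 to 129.1 CPM for microglia. None of the markers was at 0 throughout a group. Silent genes also collected counts in these libraries, so a marker level above 0 does not show that its cell type was present. How much of each marker sum is such background was not tested, nor was the part of the markers in the relation.

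The genes most like each member were taken as the 3 with the highest Pearson's r of log2(CPM + 1), among genes with a mean of at least 10 CPM. Over the 35 sorted libraries these were Tspan9 (0.938), Zmiz1 (0.934) and Lama5 (0.929) for Rxra, and Slc6a6 (0.946), Gnb5 (0.946) and the antisense transcript Gm48677 (0.944) for Rxrg. Slc6a6 encodes the taurine transporter and Gnb5 a G-protein beta subunit. Rxrb had lower values, with Epo at 0.803, Cyb5r3 at 0.797 and Ipo9 at 0.788. Many genes came close: 779 had r above 0.8 with Rxra and 1027 with Rxrg. Over the 16 RXRa libraries the transgene, with 1373 such genes, was most like Zfp597 (0.909), Cluap1 (0.901) and Mterf2 (0.893). Among the 14694 genes compared, Drd2 ranked 3226th in its likeness to Rxrg over the 35 libraries (r = 0.688). The libraries share depth and background, so these are descriptions.

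The partners, cofactors and targets of retinoid X receptors were read from a list of 47 genes. In bulk 41 were tested, and 1 was higher and 1 lower with RXRa, beside 559 higher and 128 lower of all 18579 genes (3.7%), while the median log2 fold change was -0.02 in the list and -0.02 over all genes. Nr1h3, the liver X receptor alpha, rose by 0.89 (SE 0.16, edgeR adjusted p 0.0218) and Thrb, a thyroid hormone receptor, fell by 0.33 (SE 0.07, edgeR adjusted p 0.0412). Both belong to the 13 tested receptors that pair with retinoid X receptors. Neither call held in every fit that left out 1 bulk library: Nr1h3 was lost without GFP 2 or 4 or RXRa 2, 3 or 4 (edgeR adjusted p up to 0.0939) and Thrb without any one of the 8 (up to 0.115). With library totals Thrb was at -0.29 (edgeR adjusted p 0.0766). Beside Nr1h3, the summed level of 4 microglia markers ran from 456.2 to 657.8 CPM with GFP and from 502.3 to 711.1 CPM with RXRa, and that of 3 T cell markers from 3.07 to 4.92 and from 7.46 to 20.8 CPM, without overlap. Beside Thrb, the summed oligodendrocyte markers ran from 2518 to 3047 CPM with GFP and from 1572 to 2771 CPM with RXRa, the astrocyte markers from 2212 to 2676 and from 2026 to 2290 CPM, and the D2 neuron markers from 1642 to 1946 and from 1503 to 1675 CPM. Of the other lists, the interneuron, endothelium and cortical excitatory neuron sums had higher medians with RXRa, at 230.5, 180.0 and 233.9 CPM. With GFP these were 220.3, 174.2 and 78.2 CPM. The D1 neuron and striatal projection neuron sums had lower medians with RXRa, at 761.7 and 2375 CPM against 807.8 and 2638 CPM. No marker of these lists was at 0 throughout a group, and their part was not tested.

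In D2 over both sexes, 13 of the 47 were higher and 2 lower, beside 6548 higher and 3135 lower of all 43902 genes, with a median log2 fold change of -0.01 for the list and -0.04 for all genes. The cofactors were higher in 5 of 7, among them the corepressor Ncor1 at 0.36 (SE 0.10, edgeR adjusted p 0.0138) and the coactivator Ncoa6 at 0.29 (SE 0.08, edgeR adjusted p 0.0139). Mylip, a liver X receptor target that degrades lipoprotein receptors, rose by 0.25 (SE 0.06, edgeR adjusted p 0.0112), and Rdh10, which oxidises retinol, by 0.36 (SE 0.09, edgeR adjusted p 0.0123). The receptors held 4 higher of 16, retinoid metabolism 1 higher and 1 lower of 15, and targets 3 higher and 1 lower of 9. With library totals in place of TMM the split turned to 4 higher and 13 lower, and that of all genes to 2057 higher and 9334 lower. With the silent-gene density as a covariate 0 were called, and without D2 female RXRa 4 also 0, where edgeR called 0 of all genes; without D2 male RXRa 5 the calls of Ncor1 and Ncoa6 were lost. With library totals Mylip was at 0.087 (edgeR adjusted p 0.347) and Ncoa6 at 0.10 (edgeR adjusted p 0.0992). With D1 and D2 fitted apart, Rdh10, Ncor1 and Ncoa6 had edgeR adjusted p-values of 0.0501, 0.0506 and 0.0523. In D1 over both sexes 0 of 47 were called, where 0 of all genes were.

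Between D2 and D1 under RXRa, 5 of the 47 were higher and 2 lower, beside 3006 higher and 665 lower of all genes (8.36%). Under EGFP 0 of the 47 were called, where 53 of all genes were (0.121%). Thra, the thyroid hormone receptor alpha, was higher by 0.62 (SE 0.18, edgeR adjusted p 0.0371) and Scd2, a fatty acid desaturase, by 0.79 (SE 0.23, edgeR adjusted p 0.0352). Nr4a2, an orphan receptor that pairs with retinoid X receptors, was lower (-0.27, SE 0.08, edgeR adjusted p 0.034), as was Bco1, which cleaves beta-carotene (-0.25, SE 0.07, edgeR adjusted p 0.0347). Each of these 4 calls was lost without any 1 of 10 of the 16 RXRa libraries, namely D1 female 2, 4 or 5, D2 female 2 or 4, D1 male 2, 3 or 5, and D2 male 3 or 5, and the list's count ran from 0 in such fits to 15 without D2 male RXRa 1, where 9886 of all genes were called.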

How the data were processed

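The authors deposited tables of raw counts, whole numbers per gene, together with a vector GFP row and a vector RXRa row in each table. FastQC, Trimmomatic, HISAT2, Picard, Subread and featureCounts and the build GRCm38 are named in the submitters' processing notes. Their versions, the annotation release, the strand setting and whether intron reads were counted are not given in the sources used here. Per the labels' protocols, bulk libraries were poly(A)-selected and for the sorted ones ribosomal RNA was removed from total RNA in a stranded low-input kit, both read as pairs of 150 bp, to at least 20 M (bulk) and 40 M (sorted) reads.

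Gene positions and lengths came from GENCODE M21, which holds 55394 of the 55487 gene identifiers. Differences were tested with edgeR 4.0.16 in R 4.3.3 (quasi-likelihood test, filterByExpr, TMM, vector rows left out) over each whole table, the 35 sorted libraries as 8 groups, with Benjamini-Hochberg adjusted p under 0.05 as a call. Levels are CPM of the effective library. Vector rows were compared by exact permutation tests (SciPy 1.17.1, pseudocount 1), and correlations by 100000 resamples, or exactly over 8 libraries. The 72 replicate pairs differed by more than sampling noise, with a chi-square per degree of freedom of at least 1.78. Floors cover counting error only. The fits were tested on simulated data.

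The members, gene lists and tests were chosen with earlier results of these data known. Named genes are the members, up to 4 called pathway genes per comparison by adjusted p, and the 3 genes most like each member. The alternatives were other scaling (RLE, library totals), filters, DESeq2 1.42.0, a replicate block, the silent-gene density as a covariate, separate fits of D1 and D2, another pseudocount, gene body length and leaving out each library. For the pathway list they were added after seeing the data. The library whose labels name different vectors was left out.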

Additional observations from a re-analysis of the deposited data

Results flagged for a closer look

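In D2 male RXRa 1, Rxrb was at 6.29 CPM, apart from the other 3 libraries of its group, which ran from 8.11 to 8.37 CPM. Of 55 group tests for a library that stands apart, 1 found one, and chance gives about 1 in 20.

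The library whose title and vector label name different vectors held 2941 counts of the vector RXRa row, 4.22 for each of its 697 Rxra counts, whereas no EGFP library held more than 17. It had 1.04 vector RXRa counts per vector GFP count, 135 Rxrb counts and 985 Rxrg counts. It was not given a group.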

How the results depend on the processing

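Of 1402 values under alternatives for 76 results, 1157 kept their direction and their side of the threshold or stayed within the allowed range; with RLE scaling, a filter at a mean of 1 CPM and a pseudocount of 0.1 all did. The cause of the changes below was not tested. No member's call between RXRa and control was gained under a change of scaling, filter or tool.

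With library totals in place of TMM these log2 fold changes turned sign: Rxrb in bulk 0.028, D1 female -0.080, D2 female -0.18, D1 over both sexes -0.033, D2 against D1 under RXRa -0.032 and female against male 0.00056, Rxra in D1 female -0.036, and Rxrg in D1 male -0.036 and D2 male -0.077. The value of plasmid.co-RXRa and Rxra across RXRa libraries (Pearson's r) became -0.654 (permutation test, adjusted p 0.012), and the called pathway genes became 1 in bulk (636 of all genes) and 1 in D2 against D1 under RXRa (1114). With the silent-gene density as a covariate these turned sign: Rxra in D1 female -0.020 and female against male -0.010, Rxrb in D1 female -0.22, D1 male -0.011, D2 female -0.28, D1 over both sexes -0.12 and D2 over both sexes -0.079, and Rxrg in D1 female -0.083, D1 male -0.060, D2 male -0.22, D1 over both sexes -0.071, D2 over both sexes -0.047 and female against male -0.057. Rxra in D2 against D1 under RXRa then passed at -0.24 (edgeR adjusted p 0.0478), and 0 pathway genes and 0 of all genes were called in D2.

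Same-numbered libraries did not deviate together (r from -0.702 to 0.866, best match in 5 of 19), so the numbers were not taken as pairs. With the replicate block, Rxrb in D1 female was -0.016, Rxrg in D1 male -0.011 and Rxrg in D2 against D1 under RXRa 0.42 (edgeR adjusted p 0.0655), and 0 pathway genes were called in bulk (0 of all genes, against 687) and 0 in D2 against D1 under RXRa (236 of all genes, against 3671). By gene body length Rxrb stood at 2.13 times Rxra in sorted nuclei and 25.9 times in bulk. Pathway genes called in bulk were 4 with no filter (888 of all genes) and 6 by DESeq2 (1565), 11 by DESeq2 in D2 against D1 under RXRa (5555), and 3 in D2 with D1 and D2 fitted apart (2547).

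Leaving out 1 library at a time, the log2 fold change of Rxra ran from -0.066 to 0.0092 in D1 over both sexes, -0.14 to 0.040 in D2 female, -0.13 to 0.048 in D2 male, -0.28 to -0.18 in D2 against D1 under RXRa, -0.081 to 0.016 for the difference of effects and -0.022 to 0.034 between sexes. Rxrb ran from -0.030 to 0.032 in bulk, -0.073 to 0.11 in D1 female, -0.045 to 0.18 in D1 male, -0.021 to 0.090 in D1 over both sexes, -0.22 to 0.13 in D2 female, 0.33 to 0.48 in D2 male, -0.067 to 0.12 in D2 against D1 under RXRa and -0.068 to 0.016 between sexes. Rxrg ran from -0.062 to 0.089 in D1 male, 0.33 to 0.55 in D2 female, -0.031 to 0.25 in D2 male, 0.19 to 0.34 in D2 over both sexes, 0.36 to 0.52 in D2 against D1 under RXRa and -0.033 to 0.037 between sexes. Called pathway genes ran from 0 to 4 in bulk (9 to 1016 of all genes), 0 to 22 in D2 (0 to 14766) and 0 to 15 in D2 against D1 under RXRa (118 to 9886). On log2(CPM + 1), vector GFP in D2 male ran from -0.43 to 0.33. The transgene ran from -0.35 to 0.49 between sexes in D1 and -0.38 to 0.35 in D2, and its ratio to Rxra from -0.60 to 0.36 and -0.38 to 0.54. The transgene against control ran from 4.88 to 5.12 in bulk and 7.73 to 8.34 in D2 female, where 3 against 4 libraries cannot pass an exact permutation test (smallest p 0.0571).

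Groups of 4 or 5 libraries limit what can pass.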
